A study of Homo sapiens with 3 samples.

Results

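The genes described here drive and mark the cell division cycle: cyclins, cyclin-dependent kinases (CDKs) and their inhibitors, E2F transcription factors, replication origin proteins, mitotic regulators and centromere proteins. A rule on gene symbols, set up when earlier results of these data were known, picked out 103 of the 27307 genes in the tables. Their levels were measured by RNA-seq of polyadenylated RNA in 3 libraries of teratoma, a tumour in which pluripotent stem cells form differentiated tissues. All 3 belong to 1 group: H1 cells, an established unmodified line of human embryonic stem cells, were injected under the skin of immunodeficient SCID-beige mice (1000000 cells), and the tumours were collected 3 to 4 weeks later. The libraries, called teratomas 1, 2 and 3 by replicate number, have no comparison group, come from a single cell line, and may hold host mouse cells. Whether they are separate tumours is not given, so the spread between them may be technical.

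In a dividing cell, D-type cyclins with CDK4 or CDK6 begin to inactivate the retinoblastoma protein, which frees E2F factors to switch on genes of DNA synthesis. Cyclins E, A and B with CDK2 and CDK1 then carry the cell through S phase and into mitosis, while INK4 and CIP/KIP inhibitors hold the kinases back. Cells that leave the cycle to differentiate, such as neurons, stop making most of these transcripts but keep some CDKs for other tasks.

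Promoters of such genes are known for 3 short elements, the E2F site, the CHR element and the CCAAT box bound by NF-Y. Of the 103 genes, 89 matched a RefSeq promoter table (build GRCh38.p14), in 124 windows of 300 bases that run from 250 before to 50 after a transcript start. Both strands were searched for TTTGAA (CHR), CCAAT, and for an E2F core, which was TTGGCGC or one of its variants TTCCCGC and TTGCCGC, or else TTCGCGC. Their windows held an E2F core in 33.1% of cases, against 13.0% of all 35116 windows in the table, and CCAAT in 50% against 34.6%. CHR was held by 15.3% against 15.2%. Shares are given by role, without a test. Counted by gene, 15.3% of all genes in the table had an E2F core and 18.2% had CHR. E2F cores lay in the windows of 8 of 12 origin licensing genes and 5 of 6 E2F genes, and CHR in none of these 12 and in 1 of these 6. CHR lay with 5 of 11 mitotic regulators, among them PLK1, CDC20 and BUB1B, and with 5 of 16 centromere genes. A match describes letters only, and says nothing of binding.

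Windows of 4 genes are printed because they show these layouts in genes whose levels differ below: CDK1 with all 3 elements, the mitotic kinase PLK1 with CHR and CCAAT, the replicative helicase gene MCM3 with E2F cores and CCAAT, and the inhibitor CDKN2D with CCAAT alone. Capitals mark the matches. They come from chr10:60778081-60778380 (plus strand), chr16:23678639-23678938 (plus), chr6:52284693-52284992 (minus) and chr19:10568930-10569229 (minus), and are written 5′ to 3′ along the gene.
CDK1: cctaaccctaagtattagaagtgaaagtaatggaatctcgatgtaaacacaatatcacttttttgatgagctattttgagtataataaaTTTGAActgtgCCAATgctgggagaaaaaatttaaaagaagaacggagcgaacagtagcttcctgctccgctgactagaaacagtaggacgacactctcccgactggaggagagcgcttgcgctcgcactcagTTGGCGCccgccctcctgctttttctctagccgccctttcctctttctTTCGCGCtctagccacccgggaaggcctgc
PLK1: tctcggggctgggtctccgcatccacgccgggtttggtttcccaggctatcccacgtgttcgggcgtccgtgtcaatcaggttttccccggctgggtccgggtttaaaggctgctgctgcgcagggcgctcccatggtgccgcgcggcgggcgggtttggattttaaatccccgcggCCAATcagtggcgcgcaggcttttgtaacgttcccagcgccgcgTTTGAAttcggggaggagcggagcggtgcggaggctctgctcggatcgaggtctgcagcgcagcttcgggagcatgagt
MCM3: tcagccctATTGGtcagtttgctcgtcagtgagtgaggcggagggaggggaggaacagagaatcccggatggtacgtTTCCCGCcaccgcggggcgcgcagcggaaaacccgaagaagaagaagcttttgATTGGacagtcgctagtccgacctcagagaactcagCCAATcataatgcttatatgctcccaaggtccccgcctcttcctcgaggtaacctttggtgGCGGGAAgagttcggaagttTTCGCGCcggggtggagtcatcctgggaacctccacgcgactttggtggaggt
CDKN2D: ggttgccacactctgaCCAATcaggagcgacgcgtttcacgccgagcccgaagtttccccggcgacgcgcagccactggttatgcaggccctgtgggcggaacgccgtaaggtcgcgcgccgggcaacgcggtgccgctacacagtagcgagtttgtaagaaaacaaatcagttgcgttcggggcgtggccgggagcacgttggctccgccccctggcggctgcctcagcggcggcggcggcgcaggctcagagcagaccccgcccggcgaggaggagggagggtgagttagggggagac
Counted from the start site, CHR in PLK1 began at position -29 and CCAAT at -73. The E2F cores of MCM3 began at -173, -23 and -3. In CDK1 the first E2F core began at -28, CHR at -161 and CCAAT at -150. The single CCAAT of CDKN2D began at -234.

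Most cell cycle genes were expressed in every library, and most were lowest in teratoma 3. Levels are given in RPKM, a read count divided by transcript length in kilobases and by the library's reads in units of 1000000. The deposited counts and RPKM values imply totals of 46243199, 45815401 and 43605458 reads for teratomas 1, 2 and 3. Of the 103 genes 98 reached 1 RPKM in all libraries, as did 52.7% of all genes. A mean of 10 RPKM or more was found for 42 of the 103, against 23.2% of all genes. Among genes averaging 1 RPKM or more, levels were closer, with median means of 8.38 RPKM for the cell cycle genes and 7.51 for all. CCNB3 and CDK15 stayed under 1 RPKM in every library, as did 39.5% of all genes. Differences are described for genes whose 3-library mean was 1 RPKM or more, which were 99 of the 103 and 15701 in all. Teratoma 3 was the lowest library for 80 of the 99, against 48.1% of all genes, and the highest for 14, against 39.9%. Teratoma 1 was the highest for 72, against 39.8%. The order teratoma 1, then 2, then 3 held for 68 of the 99, against 32.4%, and the opposite order for 7, against 26.5%. Differences were modest: on the log2(RPKM + 1) scale, which understates low genes, the gap from highest to lowest library, called the range below, was 1 or more (2-fold) for 14 of the 99, against 20.0% of all genes. Fold differences between libraries are on this scale throughout. Genes that differed 2-fold and were lowest in teratoma 3 made up 12.1% of the 99 (12 genes), near the 11.8% of all genes. Those that differed 2-fold and were highest there, CDKN2D and CDK5, made up 2.02%, against 7.55%. A 1.5-fold difference was seen for 58 of the 99, against 40.1%. Genes that differed 1.5-fold and were lowest in teratoma 3 made up 54.5% of the 99 (54 genes), against 23.0% of all genes, and those highest there 4.04% (4 genes), against 15.6%. Among genes that differed 1.5-fold, teratoma 3 was the lowest library for 93.1% of the cell cycle genes and 57.4% of all. None differed 4-fold, as 2.65% of all genes did.

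The median deviation from each gene's 3-library mean was 0.27, 0.08 and -0.36 on the log2 scale in teratomas 1, 2 and 3. Over all genes it was 0.03, 0.00 and -0.04. In teratoma 3, 84 of the 99 lay below their mean, against 54.3% of all genes. For 92 of the 99 genes the 95% Poisson counting intervals of the highest and lowest library lay apart, as for 82.8% of all genes, so counting error is smaller than most of these differences. With 3 libraries of 1 group there is no test between libraries, and an exact two-sided sign-flip test of any within-library order could not go below 0.25. The 2-fold differences lay mostly between teratomas 1 and 3. Without teratoma 3 the median deviations were 0.09 and -0.09 in teratomas 1 and 2, against 0.009 and -0.009 over all genes. None of the cell cycle genes then differed 2-fold, against 2.56% of all genes. Without teratoma 1, 3.03% of the cell cycle genes (3 genes) differed 2-fold, against 12.7% of all genes. Without teratoma 2, 12.2% did, against 17.4% of all genes.

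Markers of neurons, fibroblasts, epithelia and liver had wider ranges between the same libraries than the cell cycle genes. Their medians were 1.95, 2.02, 1.98 and 3.39 on the log2 scale, against 0.68. The part of these markers' tissues in the cell cycle differences was not tested. All 14 neuron markers were highest in teratoma 3 (39.9% of all genes were), with summed levels of 904, 1151 and 3060 RPKM. All 10 fibroblast and mesenchyme markers were lowest there (48.1% of all genes were), with sums of 1983, 1610 and 441. All 7 epithelial markers (723, 753 and 182), not all of them limited to gut, were lowest there too. So were all 8 liver and yolk sac markers (1122, 4002 and 362). No marker of these lists was at 0 in any library, and each reached 1 RPKM throughout, so transcripts of each list were found in every library. Of 8 neural progenitor markers 7 were highest in teratoma 3, with a median range of 0.43. Their sums of 1403, 1292 and 1242 ran the other way because of VIM alone, at 1098, 981 and 787. The 7 pluripotent cell markers summed to 25.3, 63.8 and 27.3. In bulk tissue, fewer dividing cells and less of these transcripts per cell cannot be told apart.

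**Figure D1:**
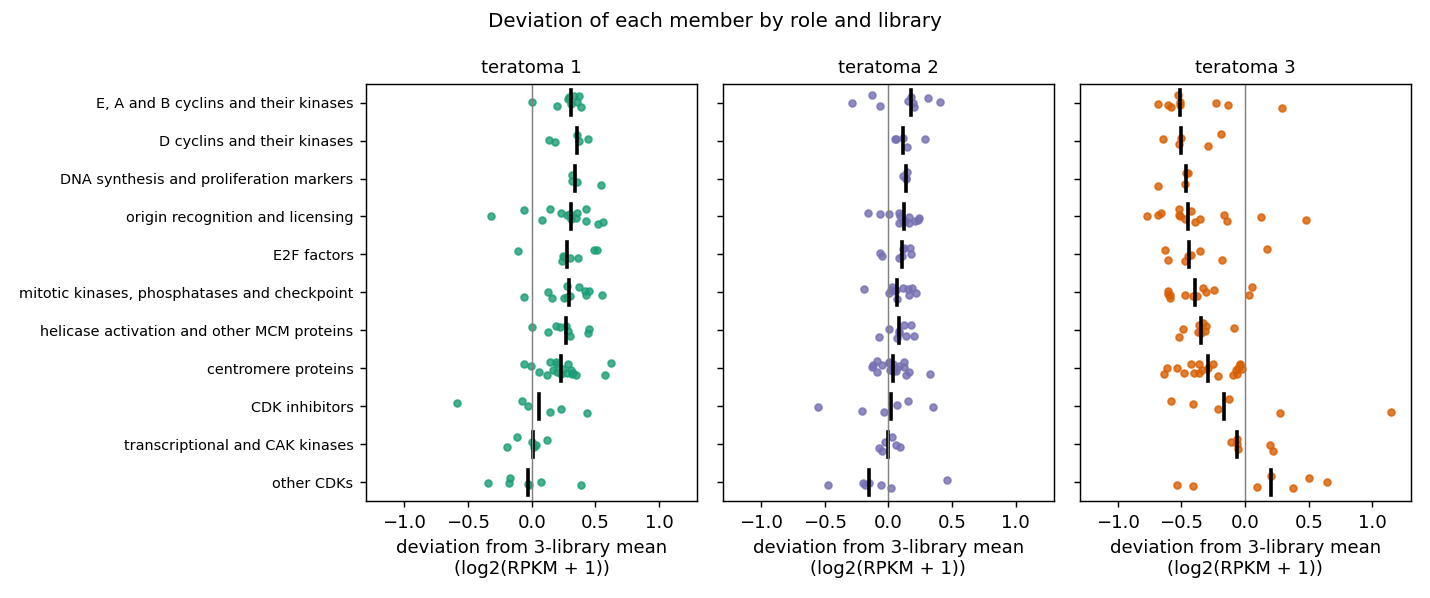
Each point is a cell cycle gene averaging 1 RPKM or more, placed by its deviation from its 3-library mean on the log2(RPKM + 1) scale, by role (rows) and library (panels). Black bars are medians. In teratoma 3 the bars of 8 role groups lie at or below -0.29, while other CDKs lie at 0.20.

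Among the D-type cyclins, which link growth signals to the cycle, CCND1 was the most abundant and the highest of all 103 genes by mean. CCND1 stood at 106, 101 and 52.5 RPKM in teratomas 1, 2 and 3, and was thus close in the first pair and about 2-fold lower in teratoma 3. CCND2, prominent in neural and other progenitors, stood at 29.3, 25 and 15.4, and followed the same order. CCND3 varied less, at 14.1, 13.2 and 11. Their order was the same in each library, with CCND1 over CCND2 by a ratio of 3.69 ± 0.321 and CCND2 over CCND3 by 1.79 ± 0.352 (SD, n = 3). Of their kinases, CDK4 stood at 69.7, 53.3 and 35.7, and CDK6 at 11.6, 11.1 and 8.11. CDK4 exceeded CDK6 by 5.07 ± 0.821. All 5 genes were lowest in teratoma 3, against 48.1% of all genes, with a median deviation of -0.50.

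Cyclins of the later phases lay below CCND1, and all but CCNA1 and CCNB3 were lowest in teratoma 3. CCNB1, the main mitotic cyclin, stood at 24.9, 22.2 and 13.4 RPKM, and its relative CCNB2 at 13.5, 11.5 and 6.78. CCNB1 exceeded CCNB2 by 1.92 ± 0.0694, a ratio that hardly differed between libraries while both levels did. CCNA2, the cyclin of S phase and G2, stood at 17.7, 16.3 and 9.54. The G1/S cyclin CCNE1 stood at 5.04, 5.10 and 2.24, level in the first pair of libraries, and CCNE2 at 2.16, 1.63 and 1.5.

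The remaining cyclins differed from this pattern. CCNA1, best known from male germ cells, stood at 4.08, 3.17 and 5.21 and was highest in teratoma 3. CCNA2 exceeded it by 4.33 in teratoma 1 and by 1.83 in teratoma 3. CCNB3, a cyclin of meiosis, was under 1 RPKM throughout, at 0.0815, 0.165 and 0.3 on 17, 34 and 59 reads. The counting intervals of CCNB3 in teratomas 1 (0.0475 to 0.130) and 3 (0.228 to 0.387) lay apart.

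The kinases of these cyclins were CDK1, the mitotic kinase, at 20.1, 17.5 and 9.81 RPKM, and CDK2, the S phase kinase, at 21.3, 23.2 and 10.4. CDK2 differed 2-fold, with teratomas 1 and 2 alike. CDK1 stayed below CDK2 in each library, at a ratio of 0.881 ± 0.111. CDK3, a close relative, stood at 7.59, 5.14 and 4.75.

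**Figure D2:**
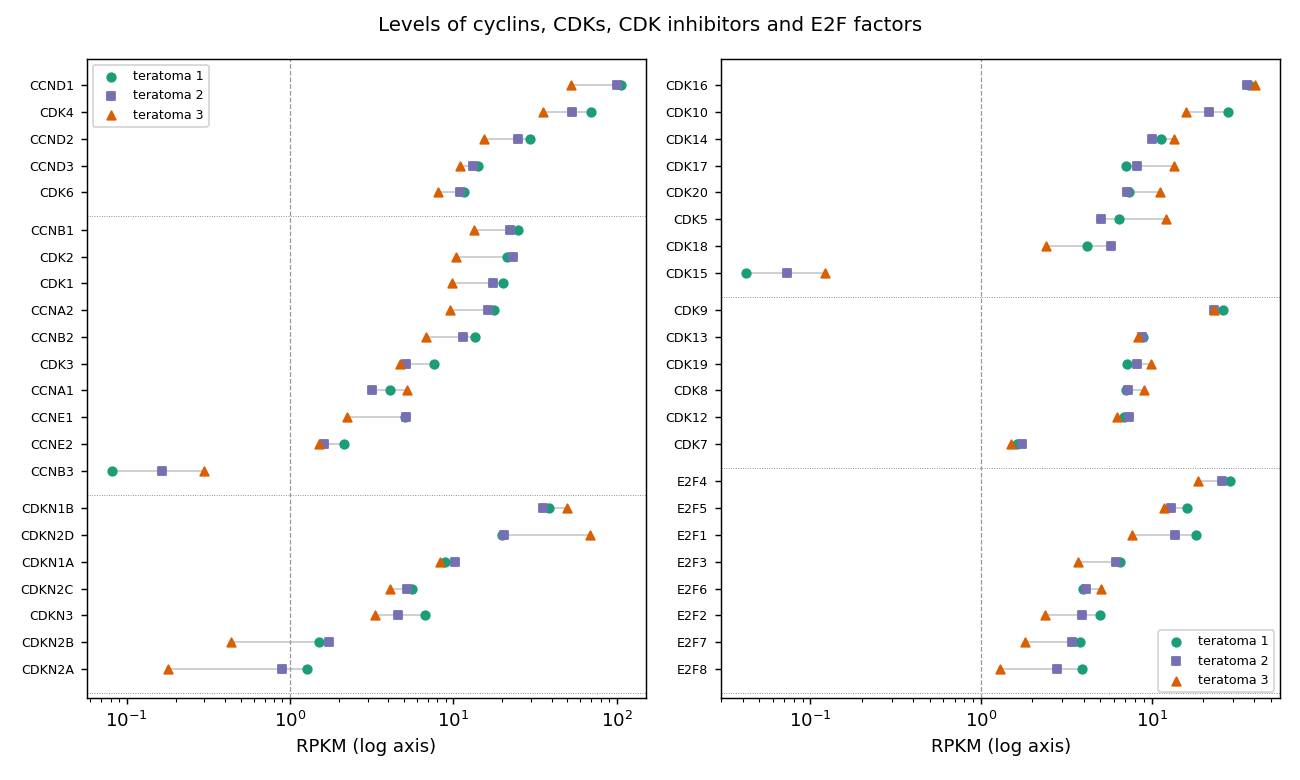
RPKM (log axis) of each cyclin, CDK, CDK inhibitor and E2F gene in teratomas 1 (circles), 2 (squares) and 3 (triangles), by role, with the dashed line at 1 RPKM. CCND1 lies farthest right of the cyclins, and CDKN2D is the gene whose triangle (68.6) lies farthest to the right of its other points (19.9 and 20.4).

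The CDK inhibitors did not move as 1 group. CDKN2D, which encodes the INK4 protein p19 that binds CDK4 and CDK6 and is known from postmitotic neurons, stood at 19.9, 20.4 and 68.6 RPKM. This was the largest range of the 99 genes, 1.74 on the log2 scale, and both of its transcript entries were higher in teratoma 3. Its ratio to CDK4 was 0.285, 0.383 and 1.92, so the inhibitor transcript exceeded that of the kinase in teratoma 3 alone among the 3 libraries. CDKN1B, which encodes p27 and holds CDK2 in quiescent cells, had the highest mean of the 7 inhibitors among the 103 genes (41.2 ± 7.52). It stood at 38.7, 35.3 and 49.7. CDKN1C, an inhibitor outside the 103 genes, was higher in each library, as given below. CDKN1A, the p53 target p21, varied little, at 8.92, 10.3 and 8.30.

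The other inhibitors were lower in teratoma 3. CDKN2C, which encodes p18, stood at 5.56, 5.24 and 4.12 RPKM, and CDKN3, a phosphatase of CDKs that is itself made in dividing cells, at 6.73, 4.59 and 3.30. CDKN2B, which encodes p15, stood at 1.51, 1.73 and 0.434. CDKN2A, which encodes p16 and ARF, stood at 1.28, 0.891 and 0.179 on 68, 47 and 9 reads, and its mean of 0.783 was under 1 RPKM. The counting interval of CDKN2A in teratoma 3 ran from 0.082 to 0.340 and lay below those of teratoma 1 (0.992 to 1.62) and teratoma 2 (0.655 to 1.19). Its 4 entries share reads, so p16 and ARF could not be told apart.

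CDKs outside the core cycle stood apart from the dividing-cell genes. CDK5, which works in postmitotic neurons with its own activators, stood at 6.45, 5.03 and 12.1 RPKM and was highest in teratoma 3 by a range of 1.12. CDK17, of the PCTAIRE kinases enriched in brain, stood at 7.04, 8.19 and 13.5, and its relative CDK16, the highest of these kinases, at 37.0, 36.2 and 40.4. CDK14 stood at 11.4, 10.1 and 13.5, and CDK20 at 7.32, 7.21 and 11.2. These were the 5 of 7 kinases of this role averaging 1 RPKM or more that were highest in teratoma 3 (71.4%), against 39.9% of all genes.

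CDK10 and CDK18 were the exceptions in that set. CDK10 stood at 28.1, 21.7 and 15.8 RPKM and was lowest in teratoma 3. CDK18, the third PCTAIRE kinase, stood at 4.17, 5.77 and 2.40, with a range of 0.996 that fell just short of the 2-fold threshold on the log2(RPKM + 1) scale. CDK15 was near absent, at 0.0422, 0.0730 and 0.121 on 7, 12 and 19 reads.

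Kinases that act on RNA polymerase II and the Mediator complex differed least. CDK9, the kinase of transcription elongation, stood at 26.3, 23.3 and 23.1 RPKM, and CDK13 at 8.87, 8.83 and 8.29. CDK12 stood between 6.25 and 7.35 and CDK7, the CDK-activating kinase, between 1.5 and 1.74. The Mediator kinases CDK8 (7.06, 7.31 and 9) and CDK19 (7.17, 8.16 and 9.88) were both highest in teratoma 3. The 6 genes had a median range of 0.19, against 0.45 over all genes, and none differed 1.5-fold, as 40.1% of all genes did.

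The E2F factors were led by E2F4, a repressor of resting cells, at 28.9, 25.9 and 18.6 RPKM. E2F5, of the same class, followed by mean at 16.2, 13.1 and 11.8. The activator E2F1 stood at 18.2, 13.6 and 7.70, a 2-fold difference, and lay between the means of E2F5 (13.7 ± 2.23) and E2F3, with no separation from E2F5 beyond the spread. E2F4 exceeded E2F1 in each library, by 1.59, 1.90 and 2.41. The other activators, E2F2 (4.95, 3.88 and 2.38) and E2F3 (6.56, 6.20 and 3.73), had the same order of libraries.

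The atypical repressors E2F7 (3.80, 3.40 and 1.82 RPKM) and E2F8 (3.92, 2.78 and 1.3), which restrain E2F targets late in S phase, were likewise lowest in teratoma 3. E2F8 differed 2-fold. E2F6, which acts with Polycomb proteins, stood at 3.98, 4.11 and 5.03 and was the only E2F gene above its 3-library mean in teratoma 3, on the deposited scale and under each other library scaling tried. E2F6 was read from a non-coding entry, and its coding entries had the same order.

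Replication licensing loads the MCM2-7 helicase onto origins that the origin recognition complex marks. MCM7 was the highest of these genes, at 75.7, 64.4 and 46.2 RPKM, followed by MCM2 at 43.5, 38.0 and 23.3. MCM3 stood at 38.9, 30.03 and 16.2 and MCM5 at 36.6, 31.9 and 16.7, each with a difference of over 2-fold, and the pair was level (ratio 0.992 ± 0.0635). MCM4 (30.4, 28.0 and 19.9) and MCM6 (21.0, 18.4 and 12.3) completed the helicase. Although the 6 proteins form 1 hexamer, MCM7 exceeded MCM6 by 3.62 ± 0.126, nearly the same ratio in each library.

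The loading factor CDT1, at 22.2, 17.2 and 8.24 RPKM, had the largest range of the genes lowest in teratoma 3, 1.33 on the log2 scale. CDC6, its partner, stood at 7.03, 5.38 and 3.18. Subunits of the origin recognition complex differed in their order of libraries. ORC1, whose level is tied to the cycle, stood at 4.91, 4.75 and 2.41, and ORC6 at 11.7, 9.93 and 6.21. By contrast ORC4 stood at 4.30, 4.90 and 8.23 and was highest in teratoma 3. The ratio of ORC6 to ORC4 was 2.73, 2.03 and 0.755. ORC3 (3.66 to 4.3, with overlapping counting intervals), ORC2 (3.69 to 4.6) and ORC5 (4.52 to 5.73) varied little.

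Factors that turn the loaded MCM ring into an active helicase were lower than the ring itself. GINS2 led at 19.6, 13.4 and 10.7 RPKM, then GINS1 at 9.37, 8.64 and 5.98. GINS3 (7.21, 5.69 and 4.36), GINS4 (6.09, 5.67 and 3.15) and CDC45 (5.36, 3.89 and 2.24) had the same order of libraries. The kinase CDC7, which fires origins, hardly varied, at 5.36, 5.73 and 4.97. MCM10, MCM8 and MCM9, MCM-named proteins outside the ring, had means of 2.66, 3.02 and 1.95. All 9 genes were lowest in teratoma 3, against 48.1% of all genes.

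Among genes often used to score proliferation, PCNA, the sliding clamp of DNA polymerase, stood at 64.6, 54.4 and 36.0 RPKM. TYMS, thymidylate synthase, stood at 57.7, 43.3 and 24.0 and differed over 2-fold. The gene overlaps an antisense neighbour, ENOSF1, whose reads could be counted with it if strand was not used. TOP2A, topoisomerase II of dividing cells, stood at 32.3, 28.6 and 18.4, and MKI67, which encodes the Ki-67 antigen, at 17.3, 15.2 and 9.77. MKI67 kept a ratio to PCNA of 0.267, 0.279 and 0.272, while both levels were over 1.5-fold lower in teratoma 3 than in teratoma 1.

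**Figure D3:**
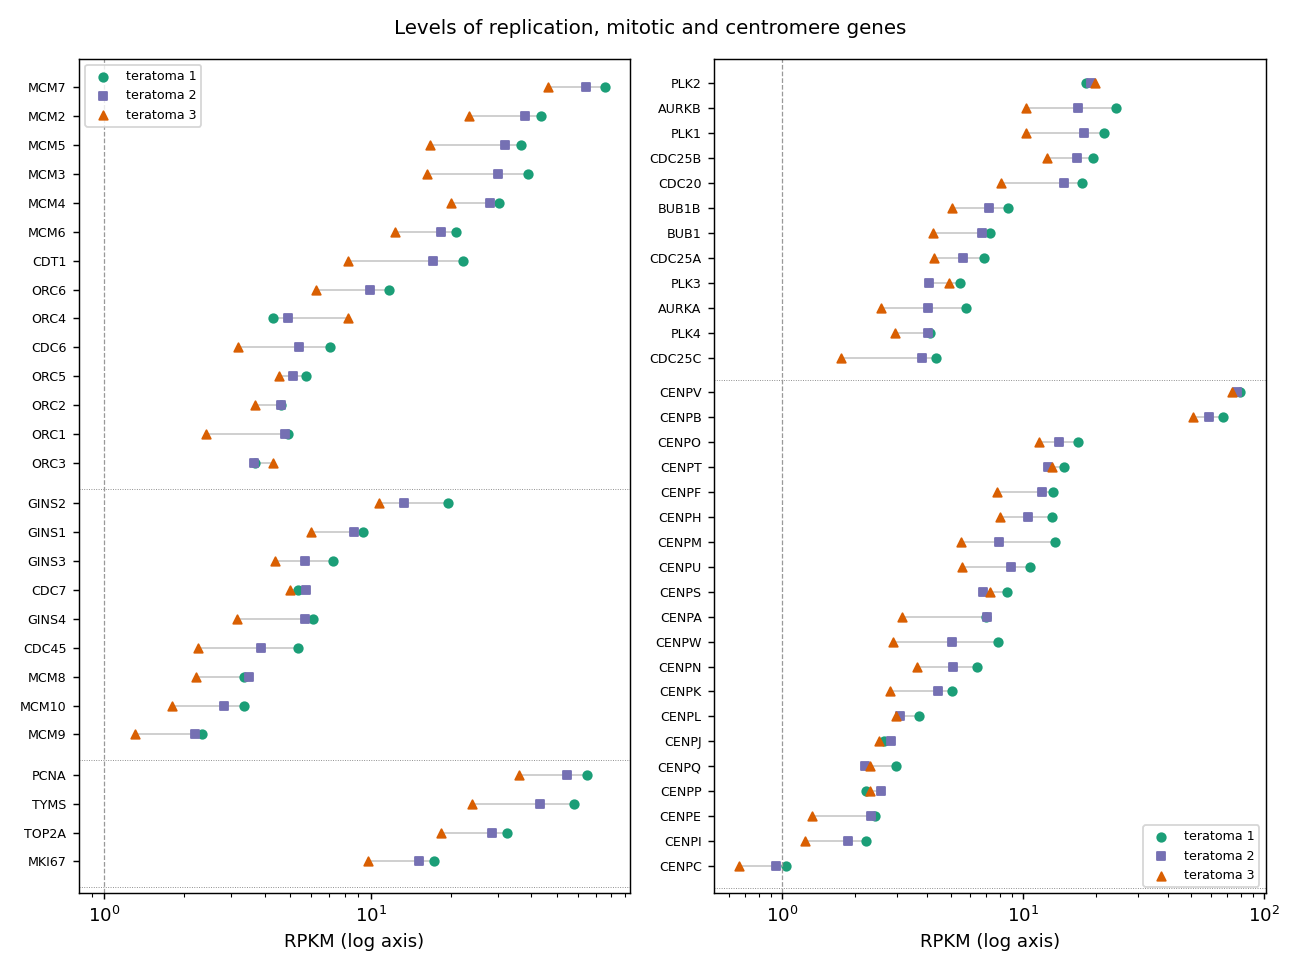
RPKM (log axis) of replication genes and proliferation markers (left) and of mitotic and centromere genes (right) in teratomas 1 (circles), 2 (squares) and 3 (triangles), with the dashed line at 1 RPKM. Triangles lie left of the other points for most genes, with ORC4 (8.23 against 4.30 and 4.90) the clearest exception.

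Mitotic kinases and checkpoint genes were lowest in teratoma 3 in 10 of 12 cases, against 48.1% of all genes. AURKB, the kinase of the chromosomal passenger complex, stood at 24.3, 16.9 and 10.3 RPKM, PLK1, a kinase of mitotic entry, at 21.7, 17.9 and 10.2, and CDC20, an activator of the anaphase-promoting complex, at 17.5, 14.8 and 8.10. Each of these differed at least 2-fold. AURKA, the spindle pole kinase, stood at 5.78, 4.02 and 2.56, and AURKB exceeded it by 4.15 ± 0.107. AURKB was read from a non-coding entry, and its 9 coding entries gave close values.

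The CDC25 phosphatases, which activate CDKs, had the same order in each library. CDC25B stood at 19.6, 16.7 and 12.5 RPKM, CDC25A at 6.89, 5.65 and 4.25, and CDC25C at 4.33, 3.80 and 1.75. The checkpoint kinases BUB1B (8.70, 7.24 and 5.06) and BUB1 (7.27, 6.73 and 4.21) lay close together. The centriole kinase PLK4 was lower, at 4.10, 4.04 and 2.94. The stress-responsive kinases PLK2 and PLK3 were the exceptions: PLK2, the most abundant of the mitotic list by mean, stood at 18.2, 19.2 and 19.9, and PLK3 at 5.45, 4.07 and 4.91.

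Centromere proteins split by how far they varied. CENPV and CENPB, a DNA-binding protein of centromeric repeats, were the most abundant, at 79.9, 77.2 and 73.7 RPKM and at 67.5, 59.1 and 50.5. The first of these varied by 0.11 on the log2 scale. CENPM (13.6, 7.91 and 5.53) and CENPW (7.87, 5.08 and 2.89), of the inner kinetochore, differed over 2-fold. CENPA, the histone H3 variant that marks centromeres, stood at 6.98, 7.11 and 3.14, and CENPF, a kinetochore protein of late G2 and mitosis, at 13.3, 12.0 and 7.78.

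Other centromere genes were near level. CENPJ, a centriole protein, stood at 2.64, 2.82 and 2.53 RPKM, and CENPT, CENPP and CENPS deviated in teratoma 3 by -0.04, -0.02 and -0.04 on the log2 scale. The sign of these last 3 changed under other scalings of the libraries. CENPS was read from a non-coding entry. Its coding entry was lower, at 4.23, 4.06 and 3.58 RPKM, and deviated in teratoma 3 by -0.11. CENPC, the scaffold of the inner kinetochore, had the lowest mean of the list at 0.881 ± 0.194. All 19 centromere genes averaging 1 RPKM or more lay below their 3-library mean in teratoma 3 on the deposited scale. The median was -0.29, and 54.3% of all genes lay below theirs. The 2 that differed 2-fold made up 10.5% of the 19 centromere genes, against 20.0% of all genes.

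**Figure D4:**
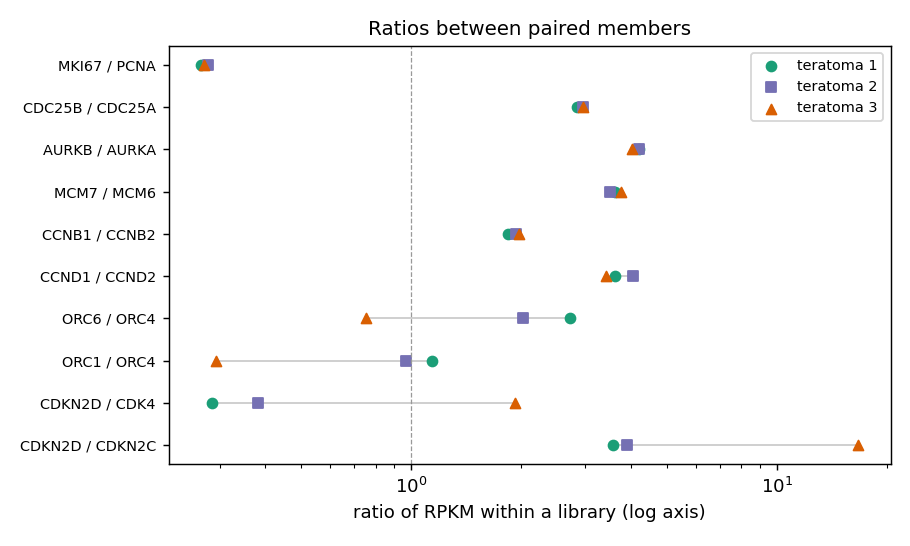
Ratio of RPKM between 2 genes of a pair within each library (log axis) for teratomas 1 (circles), 2 (squares) and 3 (triangles). MKI67 to PCNA (0.267 to 0.279) and MCM7 to MCM6 (3.50 to 3.75) lie together. ORC6 to ORC4, ORC1 to ORC4 and CDKN2D to CDK4 cross the dashed line at 1.

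Promoter elements and levels were set side by side for the 85 genes with both. The 48 with a CCAAT box had a median deviation in teratoma 3 of -0.42 and the 37 without one -0.12. With an E2F core it was -0.39 (37 genes) and without -0.29 (48 genes), and with CHR -0.44 (16 genes) and without -0.31 (69 genes). The 24 genes with none of the 3 elements had -0.07, and 16 of the 24 lay below their mean in teratoma 3, against 54.3% of all genes. The 4 printed windows span this range, with CDK1 at -0.58, PLK1 at -0.59, MCM3 at -0.69 and CDKN2D at 1.15. These are descriptions without a test.

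Cell cycle genes outside the chosen symbols, 79 in 4 lists, are given for comparison. All 22 other S phase genes were lowest in teratoma 3, against 48.1% of all genes, with a median deviation of -0.30. The leaders by level were SLBP, which binds histone mRNA, at 25.1, 21.0 and 19.9 RPKM, and the flap nuclease FEN1 at 24.3, 22.1 and 16.6. The widest ranges were those of TK1, thymidine kinase (29.1, 20.7 and 8.58), and GMNN, which encodes the CDT1 inhibitor geminin (18.4, 13.8 and 7.46). Of 24 other G2/M genes 23 were lowest there (median -0.45), with BIRC5, or survivin, at 29.3, 22.5 and 14.8, the kinesin KIF20A at 12.1, 9.11 and 4.13, and the CDK subunit CKS1B at 14.7, 8.48 and 6.18. BUB3, at 19.4, 20.5 and 23.0, was the exception.

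The RB family and its partners were split. MYBL2 and FOXM1, activators of late cell cycle genes, stood at 30.5, 25.1 and 11.9 and at 24.2, 20.6 and 11.8 RPKM, and TFDP1, the E2F partner, at 21.9, 20.3 and 17.6. Of these 11 genes 5 were lowest in teratoma 3 (45.5%), near the 48.1% of all genes. The median deviation of the 11 was -0.04, that of all genes. Among 22 CDK regulators 14 were lowest there (63.6%, against 48.1% of all genes). CCNI, an atypical cyclin, stood at 181, 194 and 298, and CDKN1C, the imprinted inhibitor p57, at 187, 201 and 132. The neuronal CDK5 activators CDK5R1 (24.5, 40.5 and 107) and CDK5R2 (10.1, 14 and 39.6) had the widest ranges of that list, 2.09 and 1.87, and were highest in teratoma 3 with CDK5 itself.

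**Figure D5:**
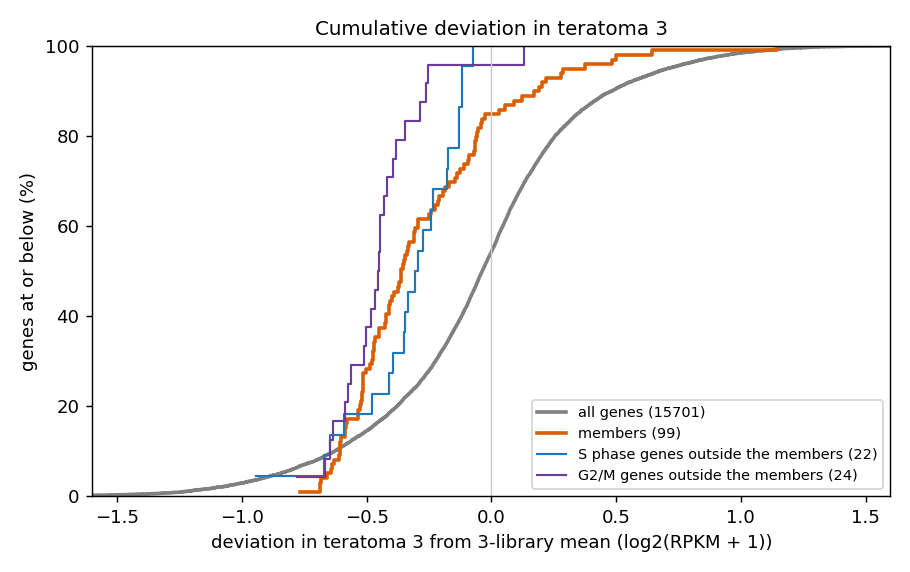
Cumulative share of genes (percent) by deviation in teratoma 3 from the 3-library mean on the log2(RPKM + 1) scale, for all 15701 genes, the 99 cell cycle genes, and the S phase and G2/M genes outside them. The curves of the 3 cell cycle sets lie left of that of all genes over most of the range, with medians of -0.36, -0.30 and -0.45 against -0.04.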

How the data were processed

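The 3 deposited tables list 59443 RefSeq transcript entries each. Bowtie2 and hg19 are named in the submitters' processing notes. For the counting tool, the strand setting and any removal of mouse reads, the entry is: not given in the sources used here. The deposited RPKM values were made by the authors, per the files' extension, and equal the deposited raw counts divided by length and 1 total per library. The entry with the highest mean RPKM stood for each symbol, as the rule states, which left 27307 genes. All 103 members had 1 listed genome placement, 70 had several entries, which share reads, and 5 were read from a non-coding entry.

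Levels were compared as log2(RPKM + 1), with exact Poisson 95% intervals that cover counting error only. At the median entry length of 2500 bases, 3 reads give 0.0259, 0.0262 and 0.0275 RPKM. No test between groups was possible. Library scaling alternatives used TMM in edgeR 4.0.16 (R 4.3.3) and median-of-ratios factors. The range statistic was tested on simulated counts with counting error only and changes of at least 4-fold. None of the 99 cell cycle genes differed that much, so the simulation does not cover their differences. Other steps used Python 3.11.15, numpy 2.4.6, pandas 2.3.3, scipy 1.17.1 and matplotlib 3.10.9.

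Members and lists were chosen with earlier results of these data known. Named in full were the 2 highest members of each role, the 15 with the largest ranges, all inhibitors, E2F factors and cyclins, and members under 1 RPKM in every library; other lists by their 2 highest genes and 2 largest ranges. A planned comparison of CDK proteins was not made. Pairs for ratios and the 4 printed promoters were chosen after the values were seen.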

Additional observations from a re-analysis of the deposited data

How the results depend on the processing

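In the alternatives with all 3 libraries, 75 to 82 of the members tested were lowest in teratoma 3. A filter at a mean of 5 RPKM was the exception, with 55 of 68, against 48.5% of all genes. Of all genes, 37.7% (no low-value filter) to 49.1% (coding entries only) were lowest there in the other alternatives with 3 libraries. With teratoma 1 or 2 left out the count was 81 to 83, against 52.1% and 55.2% of all genes. The order teratoma 1, 2, 3 held for 63 to 71, or 50 with the filter at a mean of 5 RPKM. Of all genes it held for 23.2% (no low-value filter) to 33.2% (coding entries only), and for 35.1% with the filter at 5 RPKM. The median deviation in teratoma 3 kept its sign in all 12 alternatives that gave it, from -0.43 (pseudocount 0.01) to -0.22 (without teratoma 1). The deviations with a library left out ran from 0.09 to 0.31 in teratoma 1, from -0.09 to 0.22 in teratoma 2 and from -0.31 to -0.22 in teratoma 3. Members detected numbered 56 at 5 RPKM, against 31.2% of all genes. With a library left out they numbered 98 to 99, against 53.1% to 55.6% of all genes. The count that differed at least 2-fold depended on the scale: it was 27 and 28 with pseudocounts of 0.1 and 0.01 (27.3% and 28.3% of members, close to 26.6% and 27.3% of all genes), 23 with entries summed (23%, against 22.8%), 58 at 1.5-fold (58.6%, against 40.1%) and 0 at 4-fold (against 2.65%). With a library left out it ran from 0 (without teratoma 3, against 2.56% of all genes) to 12 (without teratoma 2, 12.2% of members against 17.4%). The median range ran from 0.18 to 0.67 with a library left out. The lower values follow from fewer libraries in the range and from the loss of the library farthest from the others.

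Taking coding entries only was an alternative chosen after seeing the data. It left 98 detected, against 66.9% of all genes, and 14 with a 2-fold difference (14.1%, against 20.6%). Other scalings of the libraries moved the median of all genes by less than 0.1 on the log2 scale, and turned the sign of the deviation in teratoma 3 for 3 members, CENPP, CENPS and CENPT. The median deviation of the CDK inhibitors in teratoma 3 was negative in 12 of 13 settings and 0.28 with the filter at a mean of 5 RPKM. Of 396 role-group values under the alternatives 388 moved by less than the spread between libraries, and of 927 member means 749. No paired analysis was possible because the libraries form 1 group. Depth limits CCNB3, CDK15 and CDKN2A, which rest on 7 to 68 reads per library.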
